A study of Mus musculus with 12 samples.

Results

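Mouse striatum taken 7 days after ischemic stroke was compared between libraries labelled cGAS-KO and libraries labelled STING-KO. The comparison used 4 of the 12 RNA libraries of the study, 2 for each label, chosen by their titles, and covered all 54532 annotated genes, of which 19822 were expressed enough to be tested. Both mouse lines are described as CRISPR-Cas9 knockouts on a C57BL/6J background, one deficient in Cgas and the other in Sting. All 4 samples had an ischemic stroke, so no uninjured tissue and no unedited mouse stands in the comparison. The age, the number of founder lines, the type of stroke and the hemisphere sampled are not given in the sources used here. The labels do not say that the 2 libraries of a group came from separate mice, so the p-values measure the spread between libraries, which may be technical. Libraries labelled cGAS-KO and STING-KO at 14 days, 2 of each, served as a second look at the same genes.

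cGAS is an enzyme that binds DNA in the cytosol and makes the cyclic dinucleotide cGAMP. cGAMP binds STING, an adaptor in the endoplasmic reticulum, which recruits the kinase TBK1 and the transcription factor IRF3 to switch on type I interferon and inflammatory genes. Since the enzyme and the adaptor act in sequence, loss of either is known to stop the interferon response to cytosolic DNA. STING also answers to bacterial cyclic dinucleotides, which do not need cGAS. After a stroke the dead tissue is cleared by microglia and invading macrophages, while fibroblasts of the vessel walls and the meninges lay down scar matrix.

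Library totals of the 4 samples were 16115387 to 19365592 counts, with 25440 to 25861 genes detected in each. The upper limit that a count of 0 allows is 3 counts, which correspond to 0.154 to 0.181 CPM (CPM is the count scaled to a common normalised library total). This limit covers counting error only. All levels below are CPM, given in the order cGAS-KO replicate 1, cGAS-KO replicate 2, STING-KO replicate 1, STING-KO replicate 2. Differences are log2 changes ± SE, cGAS-KO minus STING-KO, from edgeR's quasi-likelihood test, with p-values adjusted over all genes by the Benjamini-Hochberg method and a threshold of 0.05. Xist did not exceed 0.302 CPM in any of the 4 libraries, and Ddx3y of the Y chromosome stood between 58.4 and 70.3 CPM.

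The 4 libraries were close to each other. Over the tested genes the root mean square log2 difference was 0.583 between the 2 cGAS-KO libraries and 0.558 between the 2 STING-KO libraries. Between the groups it was 0.591 to 0.690, and the lowest of these values belonged to cGAS-KO replicate 2.

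The targeted genes were examined first. Cgas (ENSMUSG00000032344; mm10, chromosome 9, 78430526 to 78443237, minus strand) stood at 5.55, 5.66, 11.2 and 12.6 CPM. The cGAS-KO libraries were below both STING-KO libraries, by a log2 change of -1.09 ± 0.28 (edgeR, unadjusted p = 0.00253, adjusted p = 0.181), which did not pass over all genes. Tmem173, the gene of STING (ENSMUSG00000024349; chromosome 18, 35733679 to 35740554, minus strand), stood at 28.7, 30.3, 20.9 and 23.8 CPM. Its log2 change was 0.40 ± 0.23 (adjusted p = 0.713). The transcript of STING was thus present in the libraries labelled STING-KO at 7 days, whereas at 14 days it stood at 18.4 and 18.1 CPM in the libraries labelled cGAS-KO and at 2.40 and 5.21 CPM in those labelled STING-KO. The 14-day log2 change of Tmem173 was 2.27 ± 0.27. At 14 days 35.9% of all tested genes passed, with changes of any size. The 14-day list medians were 2.18 for disease-associated microglia and 1.96 for interferon-stimulated genes, against 0.04 over all genes. The cause of the lower Tmem173 level was not tested. Counts per gene do not show a small CRISPR-Cas9 insertion or deletion that leaves the transcript in place. The knockout names are therefore used as labels, and each direction is one between libraries so labelled.

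In all, 32 genes differed, 17 higher and 15 lower in cGAS-KO, which is 0.161% of the genes tested. In all 32 the libraries of the groups did not overlap, as was the case for 40.9% of all genes tested. This count comes from a fit in which all 12 libraries of the study share the estimate of the spread. With the 4 compared libraries alone 2 genes passed, Hba-a2 and Ch25h, neither of them among the 32, and with the 8 labelled knockout libraries and no wild-type library 13 passed, 9 of them among the 32. Leaving out cGAS-KO replicate 1 left no gene past the threshold in edgeR, with 1154 at an unadjusted p below 0.05, and leaving out the other cGAS-KO library gave 202. Leaving out STING-KO replicate 1 gave 8 genes, and leaving out its replicate 2 gave 24. The DESeq2 Wald test on the same counts called 263 genes, including all 32. None of the 32 changed direction in any of these fits, and Shox2 and Rgs1 passed in 10 of 12 alternatives. At an unadjusted p below 0.05, 969 genes (4.89% of those tested) were higher and 789 (3.98%) lower in cGAS-KO.

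**Figure D1:**
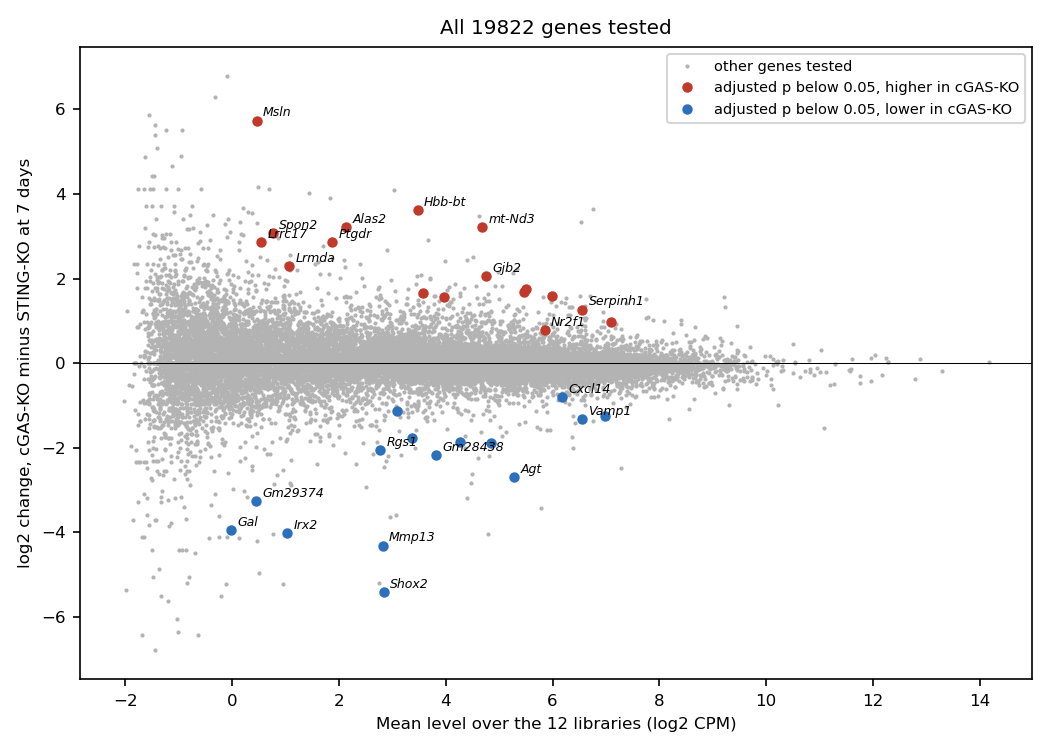
Log2 change between the labels at 7 days (vertical axis) against the mean level over the 12 libraries (horizontal axis, log2 CPM) for the 19822 tested genes, with the 17 higher genes in red and the 15 lower genes in blue. Most points lie near 0, and Shox2 and Mmp13 are the lowest of the called genes.

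**Figure D2:**
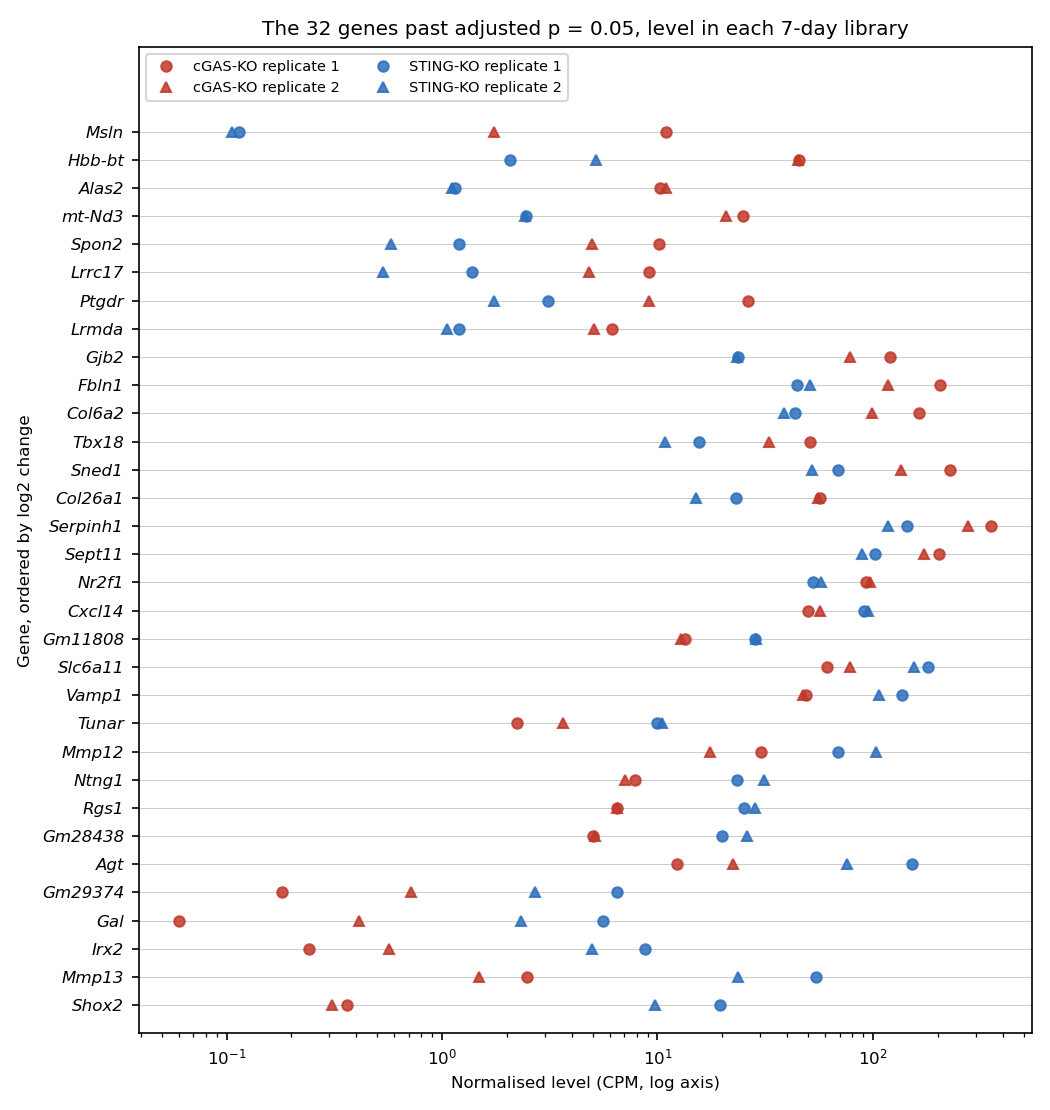
Level of the 32 called genes (rows) in each of the 4 libraries (horizontal axis, CPM on a log axis), with cGAS-KO in red, STING-KO in blue, and circles and triangles for replicates 1 and 2. In every row the red and blue points do not overlap.

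Among the genes lower in cGAS-KO, a group is known from neurons of the thalamus. Shox2 (chromosome 3, 66971727 to 66981771, minus strand), a homeobox transcription factor of thalamic neurons, stood at 0.362, 0.309, 19.5 and 9.75 CPM. It was near the detection limit in both cGAS-KO libraries and clearly present in both STING-KO libraries, a log2 change of -5.42 ± 0.48 (adjusted p = 0.00242). Ntng1, which encodes netrin-G1, a membrane-anchored guidance protein of thalamocortical axons, stood at 7.84, 7.05, 23.3 and 31.2 CPM (-1.88 ± 0.28, adjusted p = 0.0383). Irx2, an Iroquois homeobox factor, stood at 0.241, 0.566, 8.78 and 4.98 CPM (-4.02 ± 0.72, adjusted p = 0.0401). As with Shox2, STING-KO replicate 1 held the highest level of Irx2.

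Of the 33 genes listed for thalamic and hypothalamic neurons, 25 were tested. Shox2 and Ntng1 passed. At an unadjusted p below 0.05, 9 of the 25 lay lower and 1 lay higher in cGAS-KO, against 3.98% and 4.89% of all genes tested. The median log2 change over the list was -0.52, against 0.00 over all genes. Leaving out cGAS-KO replicate 1 gave -0.27, leaving out the other cGAS-KO library gave -1.04, and leaving out STING-KO replicate 2 gave -0.14. Summed over the list, the level was 479 and 480 CPM in cGAS-KO and 666 and 686 CPM in STING-KO. Some of these genes also stand in lists of the striatum, Gbx2 and Calb2 among interneurons and Six3 among projection neurons. How much tissue next to the striatum each sample held was not tested.

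Other neuronal genes that were lower belong to synapses and peptides. Vamp1, a vesicle SNARE protein for transmitter release, stood at 49.0, 47.4, 135.9 and 106.6 CPM (-1.33 ± 0.18, adjusted p = 0.032). Gal, which encodes the neuropeptide galanin, stood at 0.0603, 0.412, 5.56 and 2.33 CPM (-3.94 ± 0.65, adjusted p = 0.0401), with cGAS-KO replicate 1 below the limit of 3 counts. Tunar stood at 2.23, 3.65, 9.98 and 10.5 CPM (-1.78 ± 0.28, adjusted p = 0.0401). In each of these genes the higher cGAS-KO library stayed below the lower STING-KO library. The lincRNA Gm29374 (-3.26 ± 0.54, adjusted p = 0.0401) and Gm11808 (-1.12 ± 0.19, adjusted p = 0.0485) were also lower.

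The list of pan-neuronal and synaptic genes as a whole had a median of -0.09, with no gene called among 47. At an unadjusted p below 0.05, 9 were lower and 1 higher, against 3.98% and 4.89% of all genes tested. The neurofilament subunits had the smallest p of that list. Nefm stood at 23.1, 31.3, 135.5 and 84.8 CPM (-2.02 ± 0.37, adjusted p = 0.0786), and Nefh at 10.4, 13.1, 38.7 and 33.8 CPM (-1.63 ± 0.30, adjusted p = 0.0786). Of the striatal interneuron genes none of 21 passed. By the unadjusted p, 8 of them were higher and 3 were lower, against 4.89% and 3.98% of all genes tested. The median of -0.12 turned to 0.29 when cGAS-KO replicate 1 was left out and to 0.78 when STING-KO replicate 2 was. The 2 genes with the smallest p were among the lower ones and also stand in the thalamic list. Calb2, the calcium buffer calretinin, stood at 10.8, 5.87, 41.8 and 24.3 CPM (-1.996 ± 0.39, adjusted p = 0.093). Gbx2, a transcription factor, stood at 0.0603 and 0.0514 CPM in cGAS-KO, below the limit of 3 counts, and at 2.35 and 1.54 CPM in STING-KO (adjusted p = 0.0715).

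Genes of striatal projection neurons, the defining cells of the labelled tissue, did not separate the labels as a list. None of 44 tested genes passed, and the median was -0.13. Their mean level was 3.18 and 4.20 log2 CPM in the cGAS-KO libraries and 3.42 and 4.26 log2 CPM in the STING-KO libraries. Replicate 1 was thus low in both groups. Adora2a, an adenosine receptor of indirect pathway neurons, stood at 6.70, 33.5, 2.64 and 25.8 CPM, and Drd1, the D1 dopamine receptor, chosen after its values were seen, at 2.17, 11.2, 1.84 and 12.9 CPM. The libraries were not alike otherwise by replicate number: the log2 differences between replicates 1 and 2 in the 2 groups correlated with r = 0.0126 across genes, which are not independent replicates. In bulk tissue fewer cells of a type and less RNA per cell cannot be told apart.

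Mmp13 and Mmp12, a pair of secreted proteases, were lower in cGAS-KO. Mmp13, collagenase 3, cleaves fibrillar collagen, and Mmp12, the macrophage elastase, cleaves elastin. They lie near each other on chromosome 9, Mmp13 at 7272514 to 7283331 and Mmp12 at 7344381 to 7369499, both on the plus strand. Their RefSeq promoters (GRCm38.p6) are printed because these are the members of the family that passed the test. Each window holds 250 bases before and 50 after the annotated start, and capitals mark the AP-1 motif TGANTCA, which reads the same on both strands. The Mmp12 window is that of the downstream of its annotated starts, since the window of the upstream one, which lies at the gene start given above, holds no match.

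Mmp13 promoter, chr9:7272264-7272563, plus strand: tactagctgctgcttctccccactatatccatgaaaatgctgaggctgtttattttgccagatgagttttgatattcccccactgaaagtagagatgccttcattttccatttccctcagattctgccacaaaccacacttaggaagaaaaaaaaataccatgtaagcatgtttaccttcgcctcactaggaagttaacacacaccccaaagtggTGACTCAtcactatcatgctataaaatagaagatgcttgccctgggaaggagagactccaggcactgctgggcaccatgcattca
Mmp12 promoter, chr9:7347124-7347423, plus strand: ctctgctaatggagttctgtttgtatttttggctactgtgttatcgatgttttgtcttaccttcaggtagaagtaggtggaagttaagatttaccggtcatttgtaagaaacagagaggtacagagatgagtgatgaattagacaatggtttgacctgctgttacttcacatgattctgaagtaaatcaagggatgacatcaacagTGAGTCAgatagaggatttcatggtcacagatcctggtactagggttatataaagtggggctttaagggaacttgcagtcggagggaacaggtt

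The motif began 35 bases before the start of Mmp13 and 44 bases before that of Mmp12. Of 32851 promoter windows of the same length, 7.81% hold it. The Mmp12 window was picked because it holds the motif, so this share is no measure for that gene. A match describes letters and is neither a bound site nor a cause.

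Mmp13 stood at 2.47, 1.49, 54.7 and 23.6 CPM, so that the lower STING-KO library was far above both cGAS-KO libraries (-4.31 ± 0.47, adjusted p = 0.0033). Mmp12 stood at 30.2, 17.4, 69.0 and 102.9 CPM (-1.86 ± 0.30, adjusted p = 0.0383). Of 23 tested matrix metalloproteinases and their inhibitors, these alone passed. Over the whole list 12 changes were positive and 11 negative, with a median of 0.14.

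The immune genes that passed were few. Rgs1, which switches off G-protein signals downstream of chemokine receptors in leukocytes, stood at 6.46, 6.48, 25.2 and 28.3 CPM. The replicates lay close together in both groups, and the log2 change was -2.05 ± 0.21 (adjusted p = 0.0033). It was the only gene called among 20 of leukocyte activation, whose median was -0.21. At an unadjusted p below 0.05, 4 of the 20 were lower and none higher, against 3.98% and 4.89% of all genes tested. Cxcl14, a chemokine made constitutively in many tissues, stood at 50.2, 56.7, 90.6 and 95.1 CPM (-0.80 ± 0.13, adjusted p = 0.0401) and was the only one called of 27 tested chemokines. By the unadjusted p, 6 of the 27 were lower and 4 higher, against the same shares of all genes.

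Genes of disease-associated microglia, the lipid-handling state that microglia take on around damaged tissue, had mostly negative changes, without a single call. Of 32 genes, 31 had a negative log2 change, the median was -0.50, and 9 had an unadjusted p below 0.05, all lower, against 3.98% of all genes tested. Leaving out single libraries gave medians of -0.58 to -0.45 and 5 to 8 such genes. The smallest p belonged to Cd36, a scavenger receptor for oxidised lipids, at 60.1, 101.4, 291.2 and 188.2 CPM (-1.57 ± 0.28, adjusted p = 0.0682). Ch25h, cholesterol 25-hydroxylase, stood at 17.1, 18.7, 82.4 and 86.3 CPM (-2.24 ± 0.40, adjusted p = 0.0715). Its 2 groups were well apart, and it passed when only the 4 libraries were fitted (-2.23, adjusted p = 0.0467). At 14 days, in other libraries, the median of the same list had the opposite sign, at 2.18. At 7 days the level summed over the list was 45694 and 51945 CPM in cGAS-KO against 67187 and 69439 CPM in STING-KO.

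Lysosomal genes went the same way by less. Of 40 genes, 38 had a negative change, against 9877 of 19822 over all genes tested, and none passed. The median was -0.25, with 5 lower by the unadjusted p, against 3.98% of all genes tested. The lysosomal list shares members with the one before it, Cd68 and Ctsb among them. At 14 days the lysosomal median was 0.997. Gla, which encodes alpha-galactosidase, stood at 57.8, 62.05, 99.9 and 83.3 CPM (-0.61 ± 0.18, adjusted p = 0.254). The homeostatic microglia list had a median of -0.18, with none of 20 called. Its summed level was 5531 and 5624 CPM in cGAS-KO and 6373 and 6654 CPM in STING-KO. The part of cell number in the microglial differences was not tested.

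No gene of the pathway that both labels name passed the test. Of 26 listed genes of the cGAS-STING pathway 24 were tested, and the median was 0.02. Cgas had the smallest p. The next was Enpp1, the enzyme that degrades cGAMP outside cells, at 97.2, 91.8, 69.7 and 63.8 CPM (0.50 ± 0.23, adjusted p = 0.572). Ifnb1, the interferon that the pathway induces, had no count in 3 of the 4 libraries and 0.053 CPM in STING-KO replicate 2, below the limit of 3 counts. A difference in Ifnb1 was thus not detectable at this depth.

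Interferon-stimulated genes gave 46 positive and 21 negative changes among 67 tested, with a median of 0.21 and no call. At an unadjusted p below 0.05, 3 were higher and none lower, against 4.89% and 3.98% of all genes tested. Gbp7, a guanylate-binding protein, stood at 18.5, 16.4, 7.86 and 12.98 CPM (0.74 ± 0.26, adjusted p = 0.364), and Isg20, an exonuclease, at 4.89, 4.53, 1.78 and 2.17 CPM (1.24 ± 0.45, adjusted p = 0.378). The mean level of the list was 3.90 and 3.91 log2 CPM in cGAS-KO and 3.51 and 3.88 log2 CPM in STING-KO. STING-KO replicate 1 alone was low, and leaving it out brought the median to 0.07. None of 23 genes of antigen presentation by MHC class I and none of 17 of class II passed.

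Among inflammatory cytokines none of 19 tested genes passed, with a median of -0.19. Its sign rested on 1 library, since leaving out STING-KO replicate 2 gave 0.05 and leaving out its replicate 1 gave -0.39. By the unadjusted p, 4 genes were lower and 1 higher, against 3.98% and 4.89% of all genes tested. Summed over the list, the level was 3987 and 3358 CPM in cGAS-KO and 10816 and 8442 CPM in STING-KO. In such a sum the most abundant members weigh most, so it does not describe the cytokines as a group. Spp1 is the only member shared with the cartilage, bone and osteoclast list. That list summed to 3730 and 3063 CPM in cGAS-KO and 10997 and 8136 CPM in STING-KO. Tnfsf13b, the B cell survival factor BAFF, stood at 3.08, 1.85, 6.31 and 7.15 CPM (-1.47 ± 0.34, adjusted p = 0.142), and Tnfsf10, the death ligand TRAIL, at 19.6, 13.4, 6.83 and 8.53 CPM (1.10 ± 0.32, adjusted p = 0.237).

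A pair of the lower genes is known from astrocytes. Slc6a11, the GABA transporter GAT-3 of astrocytes, stood at 61.4, 78.1, 179.3 and 155.0 CPM (-1.26 ± 0.17, adjusted p = 0.032). Agt, angiotensinogen, which astrocytes make in the brain, stood at 12.4, 22.5, 151.8 and 75.7 CPM (-2.70 ± 0.36, adjusted p = 0.032). Astrocytes of the thalamus and hypothalamus are known to hold more Agt than those of the cortex and striatum. The list of homeostatic astrocyte genes, which holds neither of them, had a median of -0.15 with none of 22 called. At an unadjusted p below 0.05, 6 of the 22 were lower and 1 higher, against 3.98% and 4.89% of all genes tested. Aqp4, the water channel of astrocyte end-feet, stood at 221.0, 276.3, 467.4 and 591.7 CPM (-1.09 ± 0.23, adjusted p = 0.103). Reactive astrocyte genes had a median of 0.04, with none of 28 called.

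Genes of the meninges and of fibroblasts were higher in cGAS-KO. Gjb2, the gap junction protein connexin 26 of meningeal fibroblasts (chromosome 14, 57098600 to 57104702, minus strand), stood at 119.6, 78.1, 23.7 and 23.4 CPM (2.07 ± 0.23, adjusted p = 0.00645). Tbx18, a transcription factor of mural and meningeal cells, stood at 51.1, 33.1, 15.7 and 10.9 CPM (1.67 ± 0.27, adjusted p = 0.0401). Ptgdr, a receptor for prostaglandin D2, stood at 26.2, 9.11, 3.10 and 1.75 CPM (2.86 ± 0.49, adjusted p = 0.0401). Msln, mesothelin, a surface protein of mesothelial cells, stood at 10.98, 1.75, 0.115 and 0.106 CPM (adjusted p = 0.0485). Both STING-KO values of Msln lie below the limit of 3 counts, so no size is given for it. In each of these 4 genes cGAS-KO replicate 1 held the highest level.

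Of 24 listed meningeal genes 23 were tested. Gjb2 and Tbx18 passed, and 22 of the 23 were higher at an unadjusted p below 0.05, against 4.89% of all genes tested. The median log2 change was 1.69. Leaving out cGAS-KO replicate 1 brought it to 0.78, with 9 genes at that p, and leaving out each other library in turn gave 1.60 to 2.31. Summed over the list the level was 4686 and 1172 CPM in cGAS-KO and 1285 and 830 CPM in STING-KO, so that cGAS-KO replicate 2 lay below STING-KO replicate 1. Ptgds, the prostaglandin D2 synthase that the meninges and choroid plexus secrete, stood at 3083, 518.1, 808.5 and 418.4 CPM. It, Foxc2, a transcription factor of meningeal fibroblasts at 41.0, 6.79, 9.46 and 3.97 CPM, and Thsd4, an extracellular matrix protein at 73.8, 10.1, 8.26 and 7.04 CPM, differed most between the replicates of cGAS-KO. The amount of meninges in each sample was not tested.

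Genes of the extracellular matrix were also higher. Serpinh1, the chaperone HSP47 that folds procollagen, stood at 354.5, 276.8, 144.4 and 117.6 CPM (1.27 ± 0.19, adjusted p = 0.0383), and Fbln1, the matrix glycoprotein fibulin-1, at 203.6, 117.4, 44.2 and 51.1 CPM (1.75 ± 0.29, adjusted p = 0.0485). Col6a2, a chain of the collagen VI microfibril, stood at 163.3, 98.8, 43.4 and 38.6 CPM (1.68 ± 0.26, adjusted p = 0.0401). Col26a1 stood at 56.9, 55.3, 23.2 and 15.04 CPM (1.56 ± 0.22, adjusted p = 0.032). Sned1, another matrix glycoprotein, stood at 226.8, 134.7, 68.5 and 52.0 CPM (1.58 ± 0.25, adjusted p = 0.0401). Spon2, a secreted matrix protein (3.08 ± 0.55, adjusted p = 0.0485), and Lrrc17, a leucine-rich repeat protein (2.87 ± 0.46, adjusted p = 0.0401), were also higher, from levels of at most 1.38 CPM in STING-KO.

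All 31 genes listed for fibroblasts and scar matrix were tested. At an unadjusted p below 0.05, 21 were higher with none lower, against 4.89% and 3.98% of all genes tested. Serpinh1 and Fbln1 passed, and the median was 0.90. Leaving out cGAS-KO replicate 1 brought the median to 0.56 with 5 such genes, and leaving out STING-KO replicate 1 brought it to 1.33. Of 43 collagen chains, Col6a2 and Col26a1 passed, and the median was 0.51. By the unadjusted p, 13 were higher and 3 were lower, against the same shares of all genes. Vessel lists had no call. By the unadjusted p, 9 genes of pericytes and smooth muscle were higher and 2 lower, and 7 endothelial genes were higher and 1 lower. The median was 0.62 over 19 genes of pericytes and smooth muscle and 0.45 over 27 endothelial genes, and leaving out cGAS-KO replicate 1 brought these to 0.16 and 0.04, so that this library carried most of both. Rgs5 of pericytes stood at 336.8, 212.2, 169.8 and 120.2 CPM (0.92 ± 0.24, adjusted p = 0.177), while Cspg4, the NG2 proteoglycan of pericytes and oligodendrocyte progenitors, had the opposite sign (-1.15 ± 0.29, adjusted p = 0.167).

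**Figure D3:**
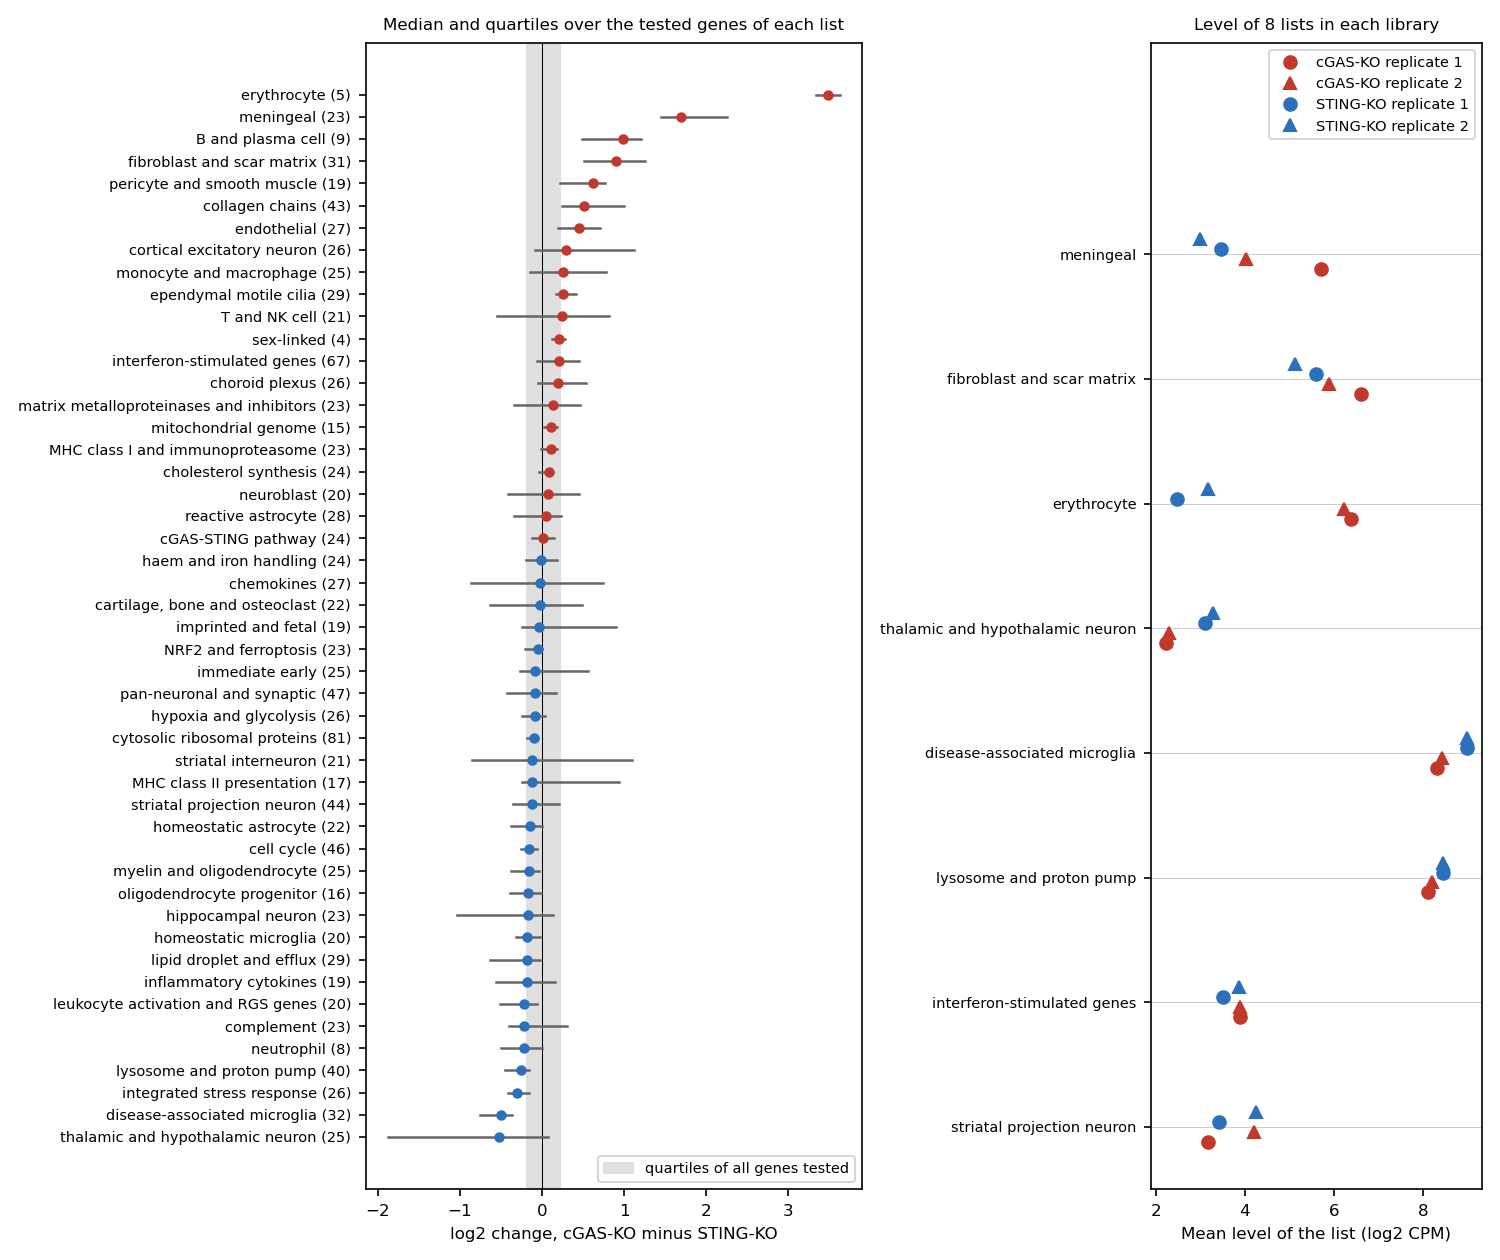
Left, median (point) and quartiles (line) of the log2 change over the tested genes of each of 48 gene lists, with the number tested in brackets and the quartiles of all genes in grey; right, the mean level of 8 lists in each library (log2 CPM). The erythrocyte and meningeal lists lie farthest to the right and the thalamic and disease-associated microglia lists farthest to the left, and cGAS-KO replicate 1 holds the highest meningeal level.

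Blood genes were higher in both cGAS-KO libraries. Alas2, the erythroid enzyme that starts haem synthesis, and Hbb-bt, a beta chain of adult haemoglobin, both passed the test. Their RefSeq promoters (GRCm38.p6) are printed because they moved together. Capitals mark the erythroid GATA motif AGATAA and the motif CCACCC, searched on both strands, which read TTATCT and GGGTGG on the other strand.

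Alas2 promoter, chrX:150547167-150547466, plus strand: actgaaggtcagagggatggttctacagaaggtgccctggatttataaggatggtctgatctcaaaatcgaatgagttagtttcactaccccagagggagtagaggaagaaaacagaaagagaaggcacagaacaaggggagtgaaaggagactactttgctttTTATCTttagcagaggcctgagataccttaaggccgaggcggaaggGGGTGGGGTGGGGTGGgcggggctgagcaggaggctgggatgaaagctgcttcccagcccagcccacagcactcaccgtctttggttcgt
Hbb-bt promoter, chr7:103813874-103814173, minus strand: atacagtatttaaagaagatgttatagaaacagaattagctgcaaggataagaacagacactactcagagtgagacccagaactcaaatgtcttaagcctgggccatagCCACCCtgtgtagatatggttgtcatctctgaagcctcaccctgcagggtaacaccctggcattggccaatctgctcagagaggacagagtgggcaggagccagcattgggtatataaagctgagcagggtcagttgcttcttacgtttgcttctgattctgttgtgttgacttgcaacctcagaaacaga

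Alas2 holds a GATA match beginning 86 bases before its start and 3 overlapping GGGTGG matches beginning 40, 35 and 30 bases before it. Hbb-bt holds 1 CCACCC match, 141 bases before its start. For both genes the distance is from the RefSeq start of the window, which differs from the gene start given below. Of all promoter windows 11.2% hold the GATA motif and 31.5% the CCACCC motif.

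Alas2 (chromosome X, 150547375 to 150570638, plus strand) stood at 10.3, 10.96, 1.15 and 1.11 CPM (3.22 ± 0.46, adjusted p = 0.0326). Hbb-bt (chromosome 7, 103812524 to 103813996, minus strand) stood at 45.5, 45.02, 2.07 and 5.19 CPM (3.63 ± 0.56, adjusted p = 0.0401). The summed level of the 4 adult globin genes, Hba-a1, Hba-a2, Hbb-bs and Hbb-bt, was 856 and 696 CPM in cGAS-KO and 48.5 and 87.2 CPM in STING-KO. The replicates of a group lay within a narrow range of each other compared with the gap between the groups. Hba-a1 and Hba-a2 are 99.8% identical over their aligned bases and Hbb-bs and Hbb-bt 93.0%, so how reads were divided between the copies is uncertain and the sum is the firmer value.

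Only 5 of the 17 listed erythrocyte genes passed the filter on low counts; the other 12 were too low to test or, for Ahsp, had no matching symbol. The log2 changes of the 5 ran from 3.22 to 3.65, with a median of 3.48. The haem and iron handling list had a median of -0.01 and no call among 24. Globin transcripts come with red cells, and how much blood each sample held was not tested.

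A pair of called genes are copies of each other. mt-Nd3, a subunit of respiratory complex I encoded by the mitochondrial genome (chromosome M, 9459 to 9806, plus strand), and Gm28438, an unprocessed pseudogene in the nucleus (chromosome 1, 24612775 to 24613119, minus strand), share 344 of 345 aligned bases. The first 60 bases of each are shown because the sole difference lies there. It is T3C, counted from 1 at the first base of the transcript, at position 9461 of the mitochondrial genome, and the capital marks it.

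mt-Nd3, chrM:9459-9518, plus strand, GRCm38: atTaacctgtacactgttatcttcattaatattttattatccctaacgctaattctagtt
Gm28438, chr1:24613060-24613119, minus strand, GRCm38: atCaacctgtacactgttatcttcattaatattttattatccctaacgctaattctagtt

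mt-Nd3 stood at 24.9, 20.8, 2.47 and 2.44 CPM (3.22 ± 0.52, adjusted p = 0.0475), and Gm28438 at 5.01, 5.14, 19.8 and 26.0 CPM (-2.17 ± 0.33, adjusted p = 0.0401). They moved in opposite directions by label. The pseudogene took 16.8% and 19.8% of their summed counts in cGAS-KO and 88.9% and 91.4% in STING-KO. At 14 days its share was 6.79% and 11.6% in cGAS-KO and 93.2% and 88.8% in STING-KO, so the shares of the labels did not overlap at either time. The sum of both genes stood at 29.9, 26.0, 22.3 and 28.4 CPM with a log2 change of 0.14 ± 0.38 (adjusted p = 0.986), smaller than its error. The 2 calls therefore rest on how reads were divided between the copies, and the sum is the value to read for the level. Position 9461 is known to differ between C57BL/6 substrains, and whether the lines differ there was not tested, since only counts were used. With the copies summed, 25 genes passed in place of 32. Of the 15 mitochondrial genes mt-Nd3 was the only one to pass, and their median was 0.11.

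**Figure D4:**
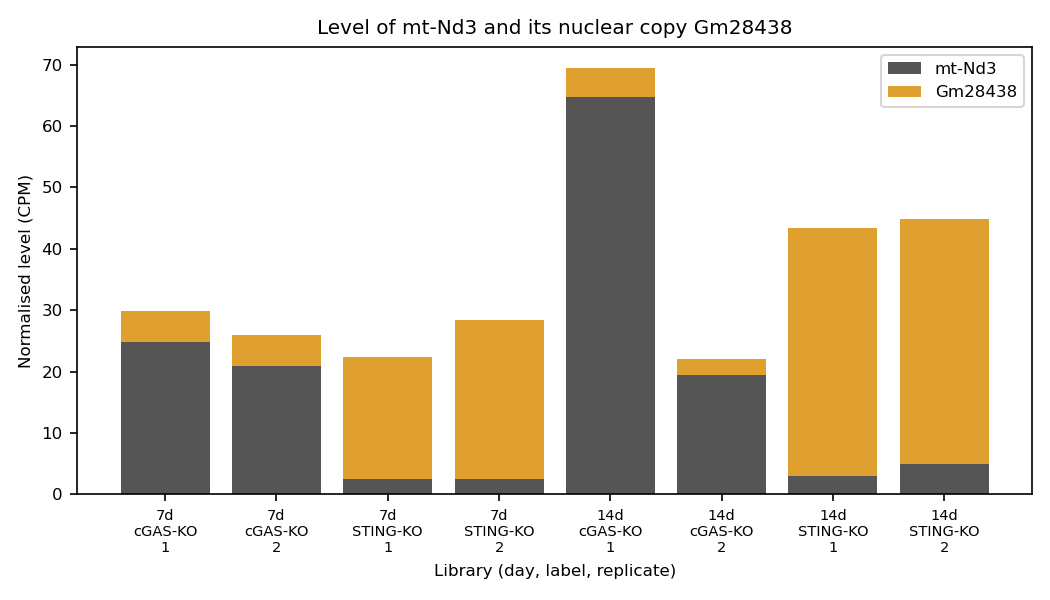
Level of mt-Nd3 (grey) and of its nuclear copy Gm28438 (orange, stacked on it) in the 8 labelled knockout libraries, in CPM. The orange share is at most 19.8% in the cGAS-KO libraries and at least 88.8% in the STING-KO libraries.

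The remaining called genes do not fall into these groups. Lrmda, known from melanocyte differentiation, stood at 6.15, 5.09, 1.205 and 1.06 CPM (2.30 ± 0.39, adjusted p = 0.0485). Nr2f1, the nuclear receptor COUP-TFI, stood at 92.7, 96.9, 52.6 and 57.1 CPM (0.79 ± 0.13, adjusted p = 0.0401). Sept11, a septin of the cytoskeleton, stood at 203.2, 172.6, 102.4 and 88.6 CPM (0.98 ± 0.15, adjusted p = 0.0401). The changes of Nr2f1 and Sept11, like that of Cxcl14, were small, with replicates close together. Nr2f1, Sept11, Msln, Spon2, Lrrc17, Gal and Gm29374 fall outside the rule for named genes and were chosen after their values were seen.

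The cartilage, bone and osteoclast list held 1 called gene of 22 tested, Mmp13, whose values stand above. No gene was called in the other lists. None of 26 cortical, 23 hippocampal, 25 myelin, 16 oligodendrocyte progenitor, 20 neuroblast, 26 choroid plexus, 25 monocyte and macrophage, 8 neutrophil, 21 T and NK cell or 46 cell cycle genes passed, and their medians lay between -0.22 and 0.30. By the unadjusted p, 6 cortical genes were higher and 1 lower, and 6 monocyte and macrophage genes were higher and 2 lower. Over all genes tested these shares were 4.89% higher and 3.98% lower. Single libraries set the sign of several of these medians. Leaving out cGAS-KO replicate 1 gave -0.32 for T and NK cells. Leaving out the other cGAS-KO library gave -0.41 for the choroid plexus and -0.11 for neuroblasts, and leaving out STING-KO replicate 2 gave 0.19 for myelin and 0.17 for progenitors. The neutrophil median, -0.22 with all libraries, kept its sign at -0.79 without cGAS-KO replicate 1. The B and plasma cell list had a median of 0.99 over 9 tested genes with none called, and leaving out cGAS-KO replicate 1 brought it to 0.48. The integrated stress response list had a median of -0.31, with none of 26 tested genes called and 23 of them negative. By the unadjusted p, 5 of these genes were lower and 1 higher, against 3.98% and 4.89% of all genes tested. Ribosomal protein genes, 81 in all, had a median of -0.10 with no call. They held 2.83% and 2.51% of the counts in cGAS-KO and 2.70% and 2.77% in STING-KO.

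The same contrast at 14 days was larger. There 7112 genes passed, 3612 higher and 3500 lower in cGAS-KO, 35.9% of the genes tested, and the 14-day STING-KO libraries were also those with the low Tmem173 level. Of the 32 genes called at 7 days, 8 passed at 14 days in the same direction and 5 in the opposite one. The 8 were Serpinh1, Sned1, Col6a2, Nr2f1, Lrmda, Ntng1, mt-Nd3 and Gm28438. Serpinh1 stood at 42.5, 50.3, 16.3 and 14.0 CPM at 14 days (1.61 ± 0.20, adjusted p = 0.000242), and Ntng1 at 5.56, 9.51, 21.3 and 17.7 CPM (-1.38 ± 0.28, adjusted p = 0.00293). The 5 that went the opposite way were Rgs1, Agt, Mmp12, Sept11 and Cxcl14. Mmp12 stood at 2.27, 2.74, 0.180 and 0.0651 CPM at 14 days (adjusted p = 0.00137), with both STING-KO libraries at or below 3 counts, so no size is given.

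The difference of the change between the times passed for 3830 genes (19.3% of those tested) and for 15 of the 32. It shares the 7-day libraries with the calls. Shox2 had no count in either STING-KO library at 14 days and 0.178 and 0.142 CPM in the cGAS-KO libraries, so at that time no level can be compared. For the lists, the 14-day medians were 0.54 for meningeal genes, 1.02 for fibroblast and scar matrix, 1.10 for erythrocytes, -0.08 for thalamic and hypothalamic neurons and 1.96 for interferon-stimulated genes, against 0.04 over all genes. Mmp13 was at most 0.180 CPM in every 14-day library of either label. Haemoglobin gene Hbb-bt stood at 3.83, 7.81, 2.76 and 1.82 CPM at 14 days (1.33 ± 0.64, adjusted p = 0.13), and Gjb2 at 9.57, 9.70, 8.82 and 5.80 CPM (0.39 ± 0.26, adjusted p = 0.253).

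**Figure D5:**
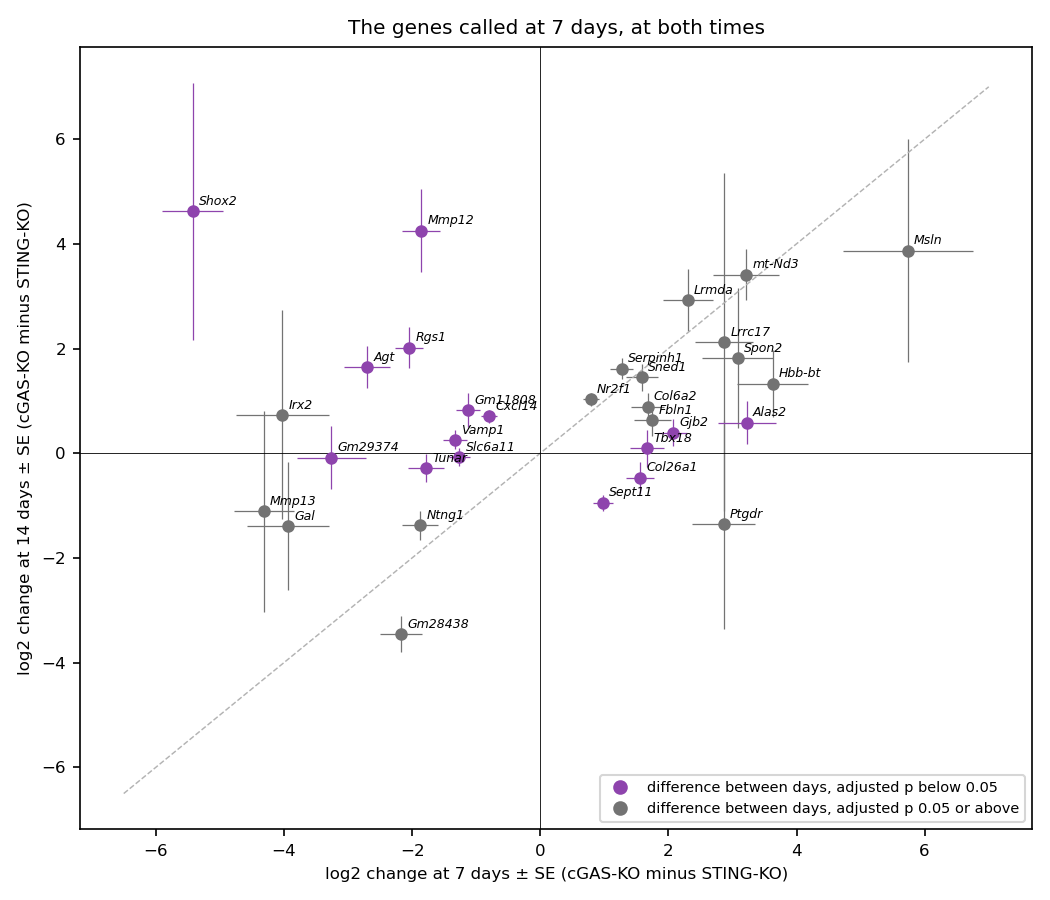
Log2 change at 7 days (horizontal axis) and at 14 days (vertical axis), each ± SE, for the 32 genes called at 7 days; purple marks the 15 whose change differed between the times, and the dashed line marks equal change. Serpinh1 and Sned1 lie near the line, and Mmp12, Rgs1 and Agt lie in the opposite quadrant.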

How the data were processed

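RNA was sequenced from 12 striatum libraries, and this comparison used the 4 of 7 days labelled cGAS-KO or STING-KO. The authors deposited raw counts for each Ensembl gene, made from polyA+ paired reads with HISAT2 and featureCounts on mm10, per the submitters' processing notes; versions, annotation release and strand setting are not given in the sources used here, so overlapping and antisense genes cannot be told apart. Symbols and coordinates came from GENCODE M21 (54495 of 54532 IDs matched). The tests ran in edgeR 4.0.16 under R 4.3.3, with filterByExpr (minimum count 10, minimum total 15), TMM factors, 1 robust quasi-likelihood fit of all 12 libraries in 6 groups (6 residual degrees of freedom, biological coefficient of variation 0.194), and Benjamini-Hochberg adjustment. WT libraries entered no contrast, but they shared in the filter, the scaling, the mean levels and the spread; without them 19291 genes were tested. The SE was taken from the log2 change and its F statistic, as |log2 change| / √F. In simulated counts with known changes, false calls exceeded the rate aimed at, which bears on calls close to the threshold.

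Alternatives were DESeq2 size factors, the Wald test of DESeq2 1.42.0, the 4 libraries alone, no WT libraries, no filter on low counts or one of 1 CPM and 10 counts in 2 libraries, a replicate block, the legacy non-robust fit, and leaving out each library. Leaving out a 14-day library and summing mt-Nd3 with Gm28438 were added after seeing the data. A library left alone in its group was assumed to vary as the others do.

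The members and the 48 gene lists were chosen with earlier results of these data known; 4 listed symbols had no match. Named are Cgas and Tmem173, the 12 largest rises and 12 largest falls (adjusted p below 0.05, mean log2 CPM of at least 1, groups separated), up to 4 called members of each list or else the 2 with the smallest p, and the 3 genes per group with the largest replicate difference. Exceptions are named where they occur. A result that this rule would name among the lysosomal genes is not reported here.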

Additional observations from a re-analysis of the deposited data

Results flagged for a closer look

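For 15 of the genes called at 7 days and for both targeted genes, the cGAS-KO minus STING-KO change at 7 days differed from that at 14 days (edgeR's interaction term, adjusted p of 0.0364 or less in each, against 19.3% of all genes tested). The interaction term contains the 7-day change by which the 15 genes were called. Their number against that share is therefore no separate support. The differences below are 7 days minus 14 days on the log2 scale. For Rgs1 the difference was -4.06, for Agt -4.35, for Mmp12 -6.11, for Cxcl14 -1.50 and for Sept11 1.92, and in these 5 genes the change at each time passed the test with opposite signs. For Alas2 the difference was 2.64, for Col26a1 2.02, for Gjb2 1.67 and for Tbx18 1.57, and none of these 4 passed at 14 days. For Gm29374 it was -3.17, for Gm11808 -1.95, for Vamp1 -1.59, for Tunar -1.50 and for Slc6a11 -1.19, with no call at 14 days. The fitted difference for Shox2 was -10.0, but both 14-day STING-KO libraries had no count of it, so this number gives no size. The 14-day STING-KO libraries held at most 3 counts of Mmp12, and the size of its difference is loose for that reason.

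The log2 change of Cgas was -1.09 at 7 days and 0.33 at 14 days, neither past the threshold (adjusted p = 0.181 and 0.431), a difference of -1.42 (adjusted p = 0.0364). For Tmem173 the difference was -1.87 (adjusted p = 0.00499), from 0.40 at 7 days and 2.27 at 14 days. The causes of these differences were not tested.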

How the results depend on the processing

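The count of 32 genes at 7 days depended on the fit. It was 32 with DESeq2 size factors, 30 with the stricter filter and 37 with the replicate number as a block (29 of the 32 shared); the labels do not tie the numbers to mice, and over all genes the replicate differences of the groups were nearly uncorrelated (r = 0.0126), although striatal projection neuron genes were low in replicate 1 of both. It was 263 with the DESeq2 Wald test, 60 without a filter, 13 without WT libraries, 6 with the legacy fit without robust estimation and 2 with the 4 libraries alone. Leaving out single libraries gave 0 to 202, the 0 without cGAS-KO replicate 1 (1154 genes at an unadjusted p below 0.05 in edgeR). The cause of these differences was not tested. In the smaller fits fewer libraries stand behind the estimate of the spread. No called gene reversed in any alternative. The adjusted p of Shox2 ran up to 0.152 and that of Rgs1 up to 0.0871. The count for the difference between the times, 3830, was 2696 to 4609 under the other settings, with 3920 under the replicate block, and 1889 to 5007 with single libraries left out.

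Of 384 list medians under alternatives, 48 moved by more than the spread between replicates. Of 871 values of named genes that were not called, 833 kept their side, 37 passed the threshold and 1 reversed, Mmp9, a neutrophil and matrix list member, which went from -0.44 to 0.24 without cGAS-KO replicate 2 and to -1.77 without cGAS-KO replicate 1. With 2 libraries per group, at the depth given above, a gene below about 0.181 CPM in a library is within the limit of 3 counts.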
